A study of Mus musculus with 6 samples.

Results

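The Hedgehog ligands and response genes examined here are 8 genes, *Shh*, *Ihh*, *Ptch1*, *Smo*, *Gli1*, *Gli2*, *Gli3* and *Hhip*, in organoids of the mouse esophagus and stomach. Members were the non-control probes that the arrays annotate with one of these names, which gave 12 of 55681 probes, under 8 of 34298 gene names. Organoids, 3-dimensional cultures of epithelial cells in a gel, were hybridized to 6 single-color Agilent arrays, 3 for each tissue, from mice numbered 1, 2 and 4. All arrays are of organoids labelled as controls at passage 0, collected on day 8 of culture except the stomach organoids of mouse 4, which were collected on day 7. Both tissues of a mouse were sampled, and the labels give neither its age nor its strain, while the methods of the study list wild-type C57BL/6 females among its mice. By the culture methods of the study, stomach cultures started from isolated corpus glands in medium with WNT3A, R-spondin1 and gastrin. Esophagus cultures started from minced, enzyme-digested esophagus, with no step named that separates epithelium from other cells. The esophagus medium described there lacks these factors and holds forskolin, although the study also grew esophageal organoids with WNT3A and R-spondin1. The labels do not name the medium of these arrays. Both media held EGF, noggin, FGF-10, a TGF-β receptor kinase inhibitor and a ROCK inhibitor. As described, the medium and the starting cells differed wherever the tissue did, and their effects cannot be told apart.

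Hedgehog ligands are secreted, lipid-modified proteins. In their absence the receptor PTCH1 keeps the membrane protein SMO inactive. When a ligand binds PTCH1, SMO signals at the primary cilium and shifts the GLI factors from repressor to activator forms, and the genes *Ptch1*, *Gli1* and *Hhip* are transcribed in turn, so that their RNA is widely used as a readout of the response. In the adult gut the ligands are made mainly by the epithelium, and much of the response lies in the mesenchymal cells beneath it. No step described for the esophagus cultures removes such cells, and their markers are given below. The comparison asked which epithelium holds RNA of the ligands and which holds RNA of the response genes.

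Values are log2 intensities from the authors' normalized table, and differences are esophagus minus stomach, with a standard error (SE) and a p-value adjusted over all 55681 probes (limma, Benjamini-Hochberg). A probe was called at an adjusted p under 0.05, and 12.2% of all probes were called, 5.94% toward the esophagus and 6.22% toward the stomach. Of the 12 member probes 3 were called, *Ihh* toward the stomach and *Gli3* and 1 of 2 *Smo* probes toward the esophagus. The scanner software marks a spot as well above background or not, and a probe was counted as well above background on an array where at least 50% of its spots were, and as at background otherwise. This held for 45.5% to 51.1% of non-control spots on the 6 arrays, and no such spot was saturated. For 1 probe, the smallest two-sided p that an exact permutation of 3 against 3 arrays allows is 0.1.

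Stretches of the probes behind the 3 calls, and of the *Smo* probe that went the other way, are shown because each call rests on a single 60-base probe. Capitals mark a poly(A) signal (AATAAA) near the end of the *Ihh* and *Gli3* probes, and in the second *Smo* probe a run of CA repeats.
Ihh A_55_P2152225, bases 31 to 60: atgttttggtctttcttttgtAATAAAaat
Gli3 A_51_P171288, bases 31 to 60: tcctgcagatgtgtaaAATAAActgtgttc
Smo A_51_P258766, bases 31 to 60: ttcaagaaccagacaacaggatgccttaga
Smo A_55_P2121484, bases 16 to 45: cacacacagaCACACACACACAtacactct

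The *Ihh* probe ended 3 bases past the signal and the *Gli3* probe 8 bases past it. AATAAA stood in 10.1% of all probes on the array, and in these 2 of the 12 member probes. The letters CACACACACA were found on either strand in 265 probes, or 0.476% of all. For the member probes only the sequence as printed was searched, and 1 held them.

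**Figure D1:**
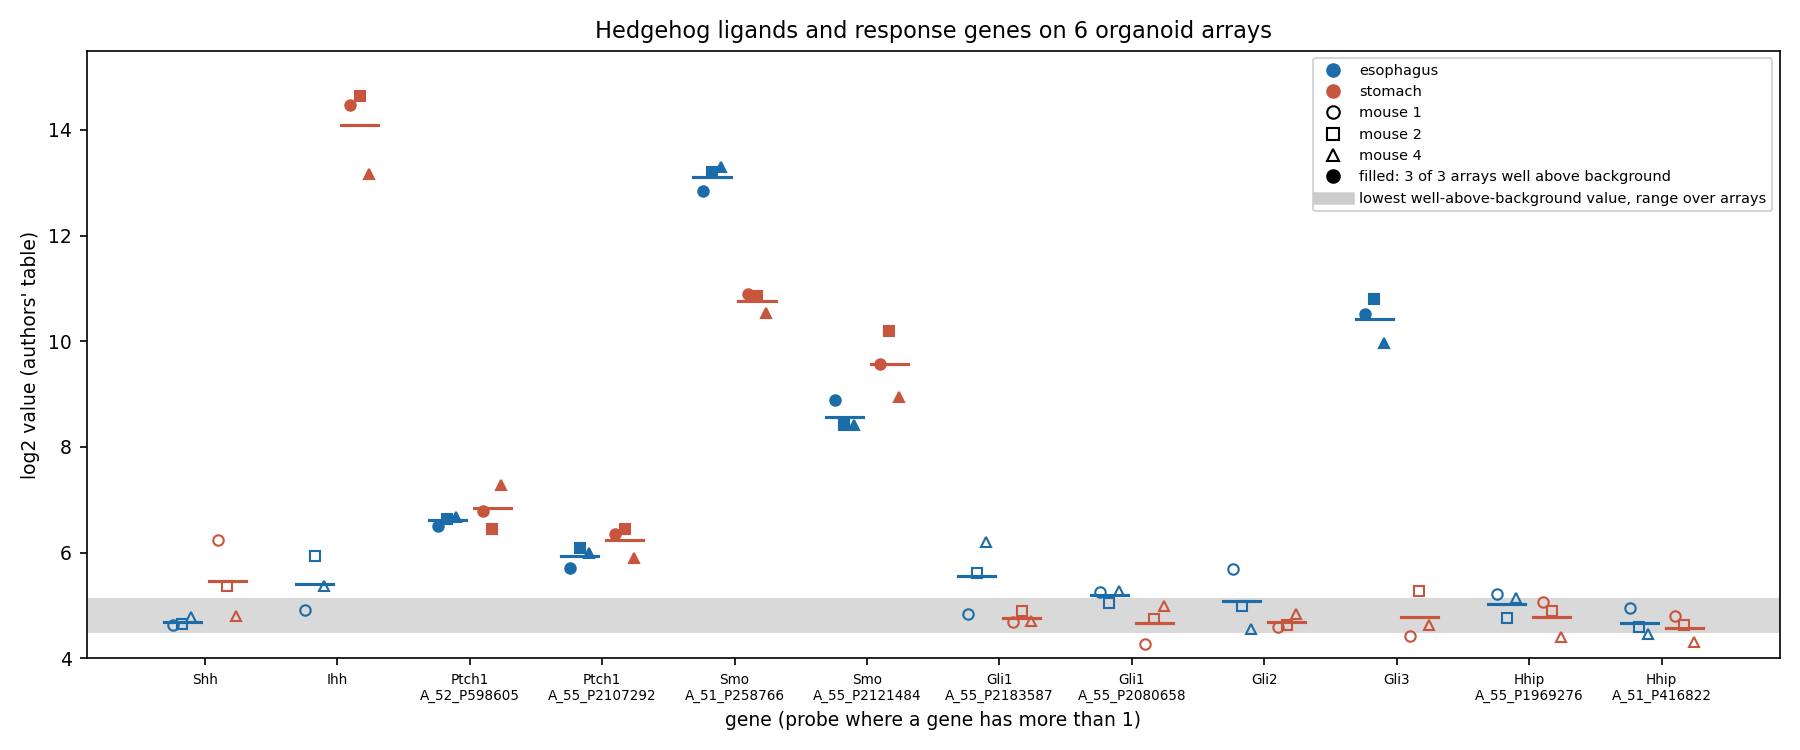
Log2 values of the 12 member probes (x axis) on each of the 6 arrays (y axis). Blue marks the esophagus and red the stomach, the symbol gives the mouse, bars are means of 3 arrays, filled symbols mark a tissue with all 3 arrays well above background, and the grey band spans the lowest well-above-background value of the arrays, 4.49 to 5.13. *Ihh* stood at 13.17 to 14.64 in the stomach, *Gli3* at 9.97 to 10.80 in the esophagus, and the 2 *Smo* probes moved in opposite directions.

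The ligand *Ihh*, Indian hedgehog, was higher in the stomach. Its only probe (NM_010544, mm9 chr1:74991906-74991965, minus strand) read 14.48, 14.64 and 13.17 on the stomach arrays of mice 1, 2 and 4. On the esophagus arrays it read 4.92, 5.93 and 5.36, and only that of mouse 2 was well above background. The lowest stomach value was that of mouse 4, and it still lay far above every esophagus value.

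The difference in *Ihh* was -8.69 (SE 0.42, limma adjusted p = 7.87e-06), with a 95% interval of -9.67 to -7.72. As 2 of the 3 esophagus arrays were at background, this size depends on where background lies. It was called under every alternative fit. The difference was -7.81 with a normexp offset of 50 and -10.03 with 75th percentile scaling.

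*Shh*, Sonic hedgehog, was near background in both tissues. Its probe (NM_009170, mm9 chr5:28783983-28784042, minus strand) is printed in 10 spots per array, which gives a technical spread beside the biological one. The mean over spots was 6.24, 5.37 and 4.80 in the stomach of mice 1, 2 and 4, and 4.63, 4.65 and 4.77 in the esophagus. The stomach array of mouse 1 was the only one well above background.

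All 3 stomach means lay above the 3 esophagus means, although that of mouse 4 did so by a margin smaller than the spread of its spots (SD 0.24). In the stomach of mouse 1 the 10 spots ran from 6.02 to 6.39, above every spot on the other arrays. The difference in *Shh* was -0.79 (SE 0.33, limma adjusted p = 0.197) and was not called. Without the stomach array of mouse 4 it was -1.12 and passed (limma adjusted p = 0.0365), and without that of mouse 1 it was -0.40 (limma adjusted p = 0.41). With a normexp offset of 50 it was -0.40 and with 75th percentile scaling -1.89, neither of them called.

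**Figure D2:**
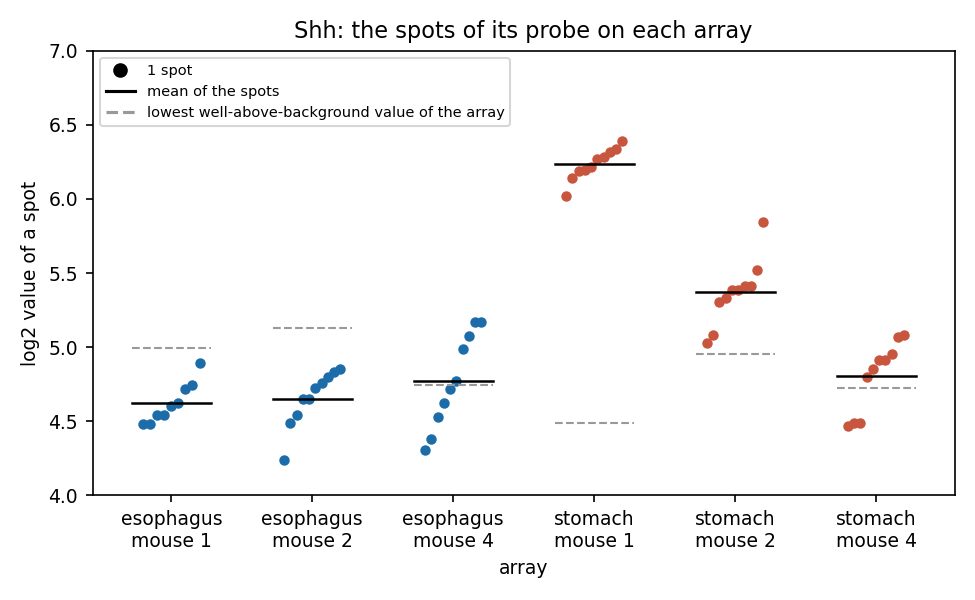
Log2 value of every measured spot of the *Shh* probe (points) on each array, with the mean of the spots (solid line) and the lowest value well above background on that array (dashed line). The 10 spots of the stomach array of mouse 1 ran from 6.02 to 6.39, and the esophagus arrays had means of 4.63 to 4.77.

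*Ptch1*, the receptor and itself a target of the pathway, was detected well above background with both of its probes on every array. The first (NM_008957, mm9 chr13:63610298-63610357, minus strand) read 6.51, 6.64 and 6.68 in the esophagus and 6.80, 6.44 and 7.28 in the stomach. The second (mm9 chr13:63612879-63612938) read 5.71, 6.09 and 5.99 in the esophagus and 6.35, 6.44 and 5.89 in the stomach. The tissues overlapped on both probes.

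The difference of the first *Ptch1* probe was -0.23 (SE 0.22, limma adjusted p = 0.62), with a 95% interval of -0.74 to 0.29. The second gave -0.30 (SE 0.20, limma adjusted p = 0.437), with an interval of -0.75 to 0.16. Neither was called under any alternative setting. That of the first probe was -0.43 without the stomach array of mouse 2 and -0.0089 without that of mouse 4. The difference of the second probe was -0.77 with 75th percentile scaling. The intervals of the main fit leave room for a difference of up to 0.75 on the log2 scale toward the stomach. The arrays do not show that the tissues were alike. The sequence of the second probe is shown because *Ptch1* is the response gene that was detected in both tissues. Capitals mark the stretch in the one of its 3 reading frames that has no stop codon.
Ptch1 A_55_P2107292, bases 1 to 60: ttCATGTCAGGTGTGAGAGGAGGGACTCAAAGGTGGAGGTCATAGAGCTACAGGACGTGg

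*Hhip*, a decoy receptor that binds ligand at the surface and a target gene, stayed at background on every array with either of its probes (NM_020259). The first (mm9 chr8:82494280-82494339, minus strand) had values of 4.76 to 5.21 in the esophagus and 4.40 to 5.07 in the stomach. The second (mm9 chr8:82490729-82490788) had 4.46 to 4.95 and 4.30 to 4.80. Differences were 0.25 (limma adjusted p = 0.583) and 0.09 (limma adjusted p = 0.851), no direction was stable across settings, and no level could be given for either tissue.

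*Smo*, which carries the signal across the membrane, gave opposite readings from its 2 probes, both annotated to NM_176996 and both bright on every array. The probe A_51_P258766 (mm9 chr6:29711225-29711284, plus strand) read 12.84, 13.20 and 13.30 in the esophagus of mice 1, 2 and 4, and 10.90, 10.86 and 10.54 in the stomach. The probe A_55_P2121484, with the CA repeats, starts 306 bases upstream (mm9 chr6:29710919-29710978) and read 8.89, 8.42 and 8.41 in the esophagus. In the stomach it read 9.57, 10.20 and 8.95. Neither probe's tissues overlapped, and the order of the tissues was turned between them.

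The first *Smo* probe was 5.08-fold higher in the esophagus, with a difference of 2.35 (SE 0.18, limma adjusted p = 0.000117), and it was called in every alternative fit that kept its probes apart, at 2.23 to 2.57. The second had a difference of -0.999 (SE 0.31, limma adjusted p = 0.0863). Without the stomach array of mouse 4 the second passed toward the stomach, at -1.31 (limma adjusted p = 0.0176). With the probes of a gene averaged, *Smo* had a difference of 0.67 and was not called (limma adjusted p = 0.0776). The call on *Smo* therefore belongs to 1 probe and not to the gene as a whole, and the part of the repeats in the other reading was not tested.

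Among the GLI factors, *Gli3* was seen only in the esophagus. GLI3 serves mainly as the repressor of target genes when no ligand is present. Its probe (NM_008130, mm9 chr13:15821502-15821561, plus strand) read 10.52, 10.80 and 9.97 in the esophagus, well above background each time. On the stomach arrays it read 4.42, 5.28 and 4.63, each at background.

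The difference in *Gli3* was 5.66 (SE 0.29, limma adjusted p = 1.04e-05). On the authors' scale the esophagus signal of *Gli3* was at least 48.5-fold higher. This bound sets the esophagus mean against a stomach mean. For each stomach array it takes the probe's own value or the array's lowest well-above-background value, whichever was higher. That lowest value is no strict detection limit. It was 4.95 on the stomach array of mouse 2, where *Gli3* read 5.28 and was at background. The difference was called under every alternative fit, at 4.48 with a normexp offset of 50 to 8.71 with 75th percentile scaling, so the bound holds for the authors' scale and the full set of arrays only.

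*Gli1*, an activator and the most commonly used target gene, was close to background. Its probe of NM_010296 (mm9 chr10:126766967-126767026, minus strand) read 4.84, 5.61 and 6.20 in the esophagus, where the arrays of mice 2 and 4 were well above background. In the stomach it read 4.69, 4.89 and 4.70, with no array well above background. The esophagus value of mouse 1 lay within the stomach range and the other two above it.

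The difference of this *Gli1* probe was 0.79 (SE 0.32, limma adjusted p = 0.178). Without the esophagus array of mouse 1 it was 1.15 and passed (limma adjusted p = 0.0166), and without that of mouse 4 it was 0.46 (limma adjusted p = 0.339). It was 0.44 with a normexp offset of 50 and 2.24 with 75th percentile scaling, neither of them called. The other *Gli1* probe (ENSMUST00000218451.1, mm9 chr10:126775021-126775080) was at background on all 6 arrays, at 5.04 to 5.28 in the esophagus and 4.27 to 4.99 in the stomach, with a difference of 0.52 (SE 0.21, limma adjusted p = 0.178). That difference was 0.32 without the stomach array of mouse 1, 0.68 without that of mouse 4 and 0.18 with a normexp offset of 50.

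*Gli2*, the main activator among the GLI factors, stayed at background on every array. Its probe (NM_001081125, mm9 chr1:120731255-120731314, minus strand) read 4.56 to 5.69 in the esophagus and 4.59 to 4.83 in the stomach, and its difference was 0.39 (SE 0.28, limma adjusted p = 0.467). The tissues overlapped. The difference was 0.09 without the esophagus array of mouse 1 and 0.65 without that of mouse 4.

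Counted over the members, 2 of 8 genes had a probe called toward the esophagus, against 7.88% of all gene names, and 1 toward the stomach, against 8.33%. The median difference of the brightest probe of each member was 0.32, beside 0.03 over all gene names. The tissues did not overlap on 6 of the 12 member probes, 3 with the esophagus above and 3 with the stomach above, against 28.6% of probes over the whole array. With p under 0.05 without adjustment and a 1.5-fold difference, the thresholds the methods of the study state, 6 member probes passed, against 18.1% of all probes. The 3 that this rule added were those of *Shh*, the second of *Smo* and the NM_010296 probe of *Gli1*.

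**Figure D3:**
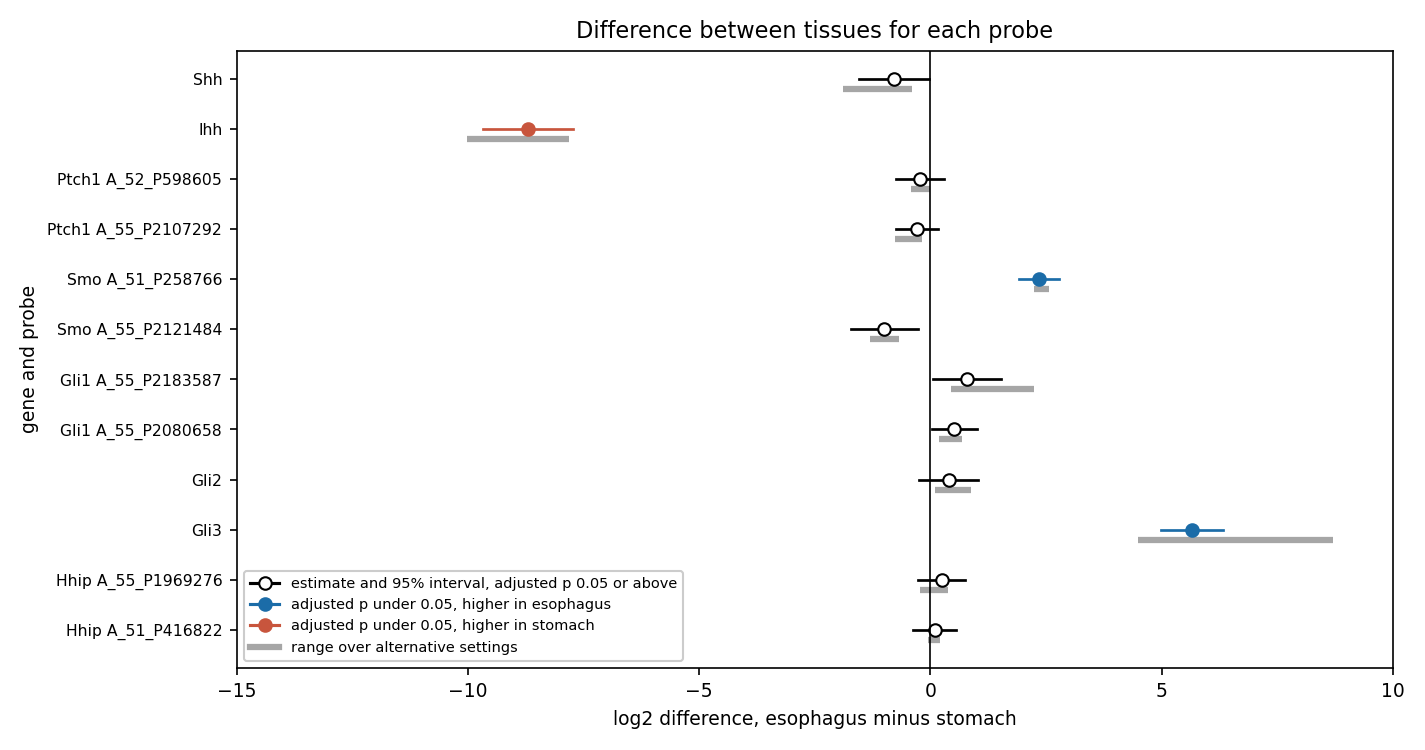
Log2 difference between tissues (x axis) for the 12 member probes (y axis), as the limma estimate (point) with its 95% interval (line) and the range over the alternative settings (grey bar). The *Ihh* estimate is -8.69, the *Gli3* estimate 5.66 and the called *Smo* estimate 2.35, and the ranges of both *Hhip* probes cross 0.

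Promoters of *Ihh* and *Gli3*, the members with the largest fitted differences in each direction, are shown as the 250 bases before the start in RefSeq (assembly GRCm38.p6). RefSeq promoters were matched for 6 members, *Ihh*, *Ptch1*, *Smo*, *Gli2*, *Gli3* and *Hhip*, and not for *Shh* and *Gli1*. Capitals mark GC boxes, the letters GGGCGG on either strand.
Ihh, GRCm38.p6 chr1:74951673-74951922, minus strand: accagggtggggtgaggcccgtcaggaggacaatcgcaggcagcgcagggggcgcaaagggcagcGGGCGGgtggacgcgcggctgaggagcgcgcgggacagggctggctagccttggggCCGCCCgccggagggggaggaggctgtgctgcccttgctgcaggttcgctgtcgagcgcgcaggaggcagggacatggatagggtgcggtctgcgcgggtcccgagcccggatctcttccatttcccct
Gli3, GRCm38.p6 chr13:15463473-15463722, plus strand: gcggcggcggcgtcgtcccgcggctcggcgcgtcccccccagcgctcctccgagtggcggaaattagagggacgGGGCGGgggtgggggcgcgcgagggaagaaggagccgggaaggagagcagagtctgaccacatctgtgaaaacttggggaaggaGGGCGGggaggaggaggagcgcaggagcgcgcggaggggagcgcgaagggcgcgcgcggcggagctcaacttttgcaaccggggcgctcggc

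Each of these promoters held 2 GC boxes, and GGGCGG was found on either strand in 32.7% of all 32851 promoters over the same 250 bases. Their GC content was 72.0% and 72.8%, beside a median of 52.4% over all promoters. The GLI binding letters GACCACCCA, searched on both strands over 250 bases before and 50 after the start, were found in none of the 6 member promoters and in 0.253% of all promoters. The shorter core CCACCCA, which lies within them, was also found in none of the 6, and in 9.3% of all promoters. These letters being absent from these windows says nothing of GLI binding elsewhere.

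The wider pathway was read from 5 lists of 72 genes in all, of which 12 had a probe called toward the esophagus and 12 toward the stomach. Over all gene names 7.88% had a probe called toward the esophagus and 8.33% toward the stomach, or 16.2% either way. The third ligand gene and a ligand exporter were higher in the stomach. Of 6 genes for ligand processing and release, 2 were higher in the stomach, 1 in the esophagus and 3 were not called, with a median difference of -0.01. *Dhh*, the third Hedgehog ligand, read 9.79, 9.88 and 9.82 in the stomach and 7.86, 6.09 and 7.32 in the esophagus, a difference of -2.74 (SE 0.40, limma adjusted p = 0.0034). *Disp1*, which releases the lipid-modified ligand from the producing cell, read 9.14, 9.29 and 9.49 in the stomach and 6.45, 7.62 and 7.41 in the esophagus. Its difference was -2.15 (SE 0.30, limma adjusted p = 0.00275). Both genes were measured above background on every array, and their tissues did not overlap.

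*Scube2*, a secreted protein that aids ligand release, went the other way. Its brightest probe read 6.28, 6.58 and 5.89 in the esophagus and was not well above background in the stomach, where it read 5.22, 4.92 and 5.25, a bound of at least 2.15-fold (limma adjusted p = 0.0109, and 0.0555 without the stomach array of mouse 2). The fitted difference was 1.12, with 0.60 at a normexp offset of 50 and 2.03 with 75th percentile scaling, and this bound too holds for the authors' scale only. The second *Scube2* probe was well above background on 1 stomach array only.

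The co-receptors *Boc* and *Gas1* were higher in the esophagus. Of 6 co-receptor and surface genes, 2 were higher in the esophagus and 4 were not called, with a median difference of 0.50. Toward the stomach 0 were called by limma, and 0 had an unadjusted p under 0.05. *Boc*, a co-receptor that presents ligand to PTCH1, read 8.77, 8.97 and 8.40 in the esophagus and 5.46, 5.93 and 5.93 in the stomach. Its difference was 2.94 (SE 0.21, limma adjusted p = 6.99e-05). *Gas1*, a lipid-anchored co-receptor, read 9.53, 9.98 and 9.65 in the esophagus on its brightest probe and was not well above background in the stomach, making it at least 29.1-fold higher (limma adjusted p = 1.18e-06). The fitted difference of this *Gas1* probe was 4.97, with 3.78 at a normexp offset of 50 and 7.80 with 75th percentile scaling, so the bound holds for the authors' scale only. Its second probe was well above background in both tissues, at 6.27, 6.30 and 6.58 in the stomach, with a difference of 0.24 that was not called, and the third was at background on all arrays. The call rests on 1 of the 2 *Gas1* probes with signal.

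Of 21 genes that transmit the signal inside the cell, 5 were higher in the esophagus, 1 in the stomach and 15 were not called, with a median difference of 0.20. *Evc* and *Evc2* encode partners of SMO at the base of the cilium. *Evc* read 9.27, 9.52 and 9.96 in the esophagus and 5.87, 5.89 and 6.33 in the stomach, a difference of 3.55 (SE 0.22, limma adjusted p = 3.4e-05). The other two *Evc* probes could not bear on this difference, as one was at background on all arrays and the other on all but 1 stomach array. *Evc2* read 12.04, 12.19 and 12.18 against 9.15, 9.44 and 8.80, a difference of 3.00 (SE 0.19, limma adjusted p = 3.47e-05), and its second probe was called the same way at 1.62, and at 1.02 to 2.58 over the alternatives. The called *Evc* probe and both *Evc2* probes were called in every alternative fit.

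*Tulp3*, a ciliary trafficking adaptor, was higher in the esophagus by 1.29 (limma adjusted p = 0.033), and *Arrb2*, an arrestin, was higher in the stomach, at -1.10 (limma adjusted p = 0.0258). Both calls were fragile. *Tulp3* reached an adjusted p of 0.134 without the stomach array of mouse 1 and *Arrb2* 0.11 without that of mouse 2, and with the mouse as a block *Arrb2* had 0.0558. *Csnk1a1*, casein kinase 1 alpha, and *Prkar1a*, the regulatory subunit that holds protein kinase A inactive, completed the 5 higher in the esophagus. *Csnk1a1* had a difference of 1.18 on its brightest probe (limma adjusted p = 0.00573) and *Prkar1a* one of 0.78 (limma adjusted p = 0.0442). The *Prkar1a* call was lost in several alternative fits, with an adjusted p of 0.163 without the stomach array of mouse 1, 0.166 without that of mouse 2 and 0.134 and 0.111 without the esophagus arrays of mice 2 and 4. A second *Prkar1a* probe was called the same way at 1.03 (limma adjusted p = 0.0489). The call of this probe was also lost among the alternatives, where its limma adjusted p reached 0.178. The third was at background on all arrays.

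Other genes often named as Hedgehog targets split between the tissues. Of 10, 3 were higher in the esophagus, 4 in the stomach and 3 were not called, with a median of -0.15. *Bmp4*, a secreted growth factor, read 9.98, 10.11 and 9.30 in the stomach and 6.86, 6.26 and 5.90 in the esophagus, a difference of -3.45 (SE 0.30, limma adjusted p = 0.000213). The second *Bmp4* probe was at background on all arrays and could not bear on this difference. *Ccnd2*, a cell cycle cyclin, had a difference of -2.36 (SE 0.31, limma adjusted p = 0.00185) and *Mycn*, a transcription factor, one of -2.26 (SE 0.47, limma adjusted p = 0.0176). *Mycn* was well above background on 1 esophagus array only, and its difference was -1.67 with a normexp offset of 50 and -3.60 with 75th percentile scaling. It fell short without the stomach array of mouse 1 (adjusted p = 0.0774) or of mouse 2 (0.0812).

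Toward the esophagus were *Foxf2*, a forkhead factor, *Sfrp1*, a secreted WNT antagonist, and *Rab34*, a small GTPase of cilium formation. *Sfrp1* read 7.54, 7.25 and 7.53 in the esophagus and 5.36, 5.16 and 5.33 in the stomach (difference 2.16, SE 0.15, limma adjusted p = 6.94e-05). Only 1 stomach array was well above background for *Sfrp1*, and the difference was 1.48 with a normexp offset of 50 and 3.62 with 75th percentile scaling. *Rab34* had a difference of 1.81 (SE 0.17, limma adjusted p = 0.000376). *Foxf2* had one of 2.30 (SE 0.55, limma adjusted p = 0.0332), with esophagus values that ran from 6.64 to 8.89, and 1 stomach array well above background. With a normexp offset of 50 the *Foxf2* difference was 1.63 and not called (adjusted p = 0.115), and with 75th percentile scaling it was 3.66. Its call was also lost without the stomach array of mouse 1 (adjusted p = 0.114) or 2 (0.137) and without the esophagus array of mouse 2 (0.0628). None of these genes answers to Hedgehog alone.

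Of 29 genes of the primary cilium, 1 was higher in the esophagus, 5 in the stomach and 23 were not called, with a median of -0.13, and 27 of the 29 were detected on every array. *Cep164*, a centriole protein needed to start a cilium, was higher in the esophagus on all 3 of its probes, at 1.69, 1.34 and 1.75, the first with a limma adjusted p of 0.000371. *Tctn1*, of the ciliary gate, was higher in the stomach (-1.27, limma adjusted p = 0.00192) on its brightest probe, and its other probe was at background on all arrays. *Bbs1* and *Bbs9*, subunits of the BBSome, were also called toward the stomach (-1.33 and -1.30, limma adjusted p = 0.0341 and 0.0451). With the mouse as a block *Bbs1* had an adjusted p of 0.0559, and without the stomach array of mouse 1 *Bbs1* and *Bbs9* had 0.135 and 0.173.

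**Figure D4:**
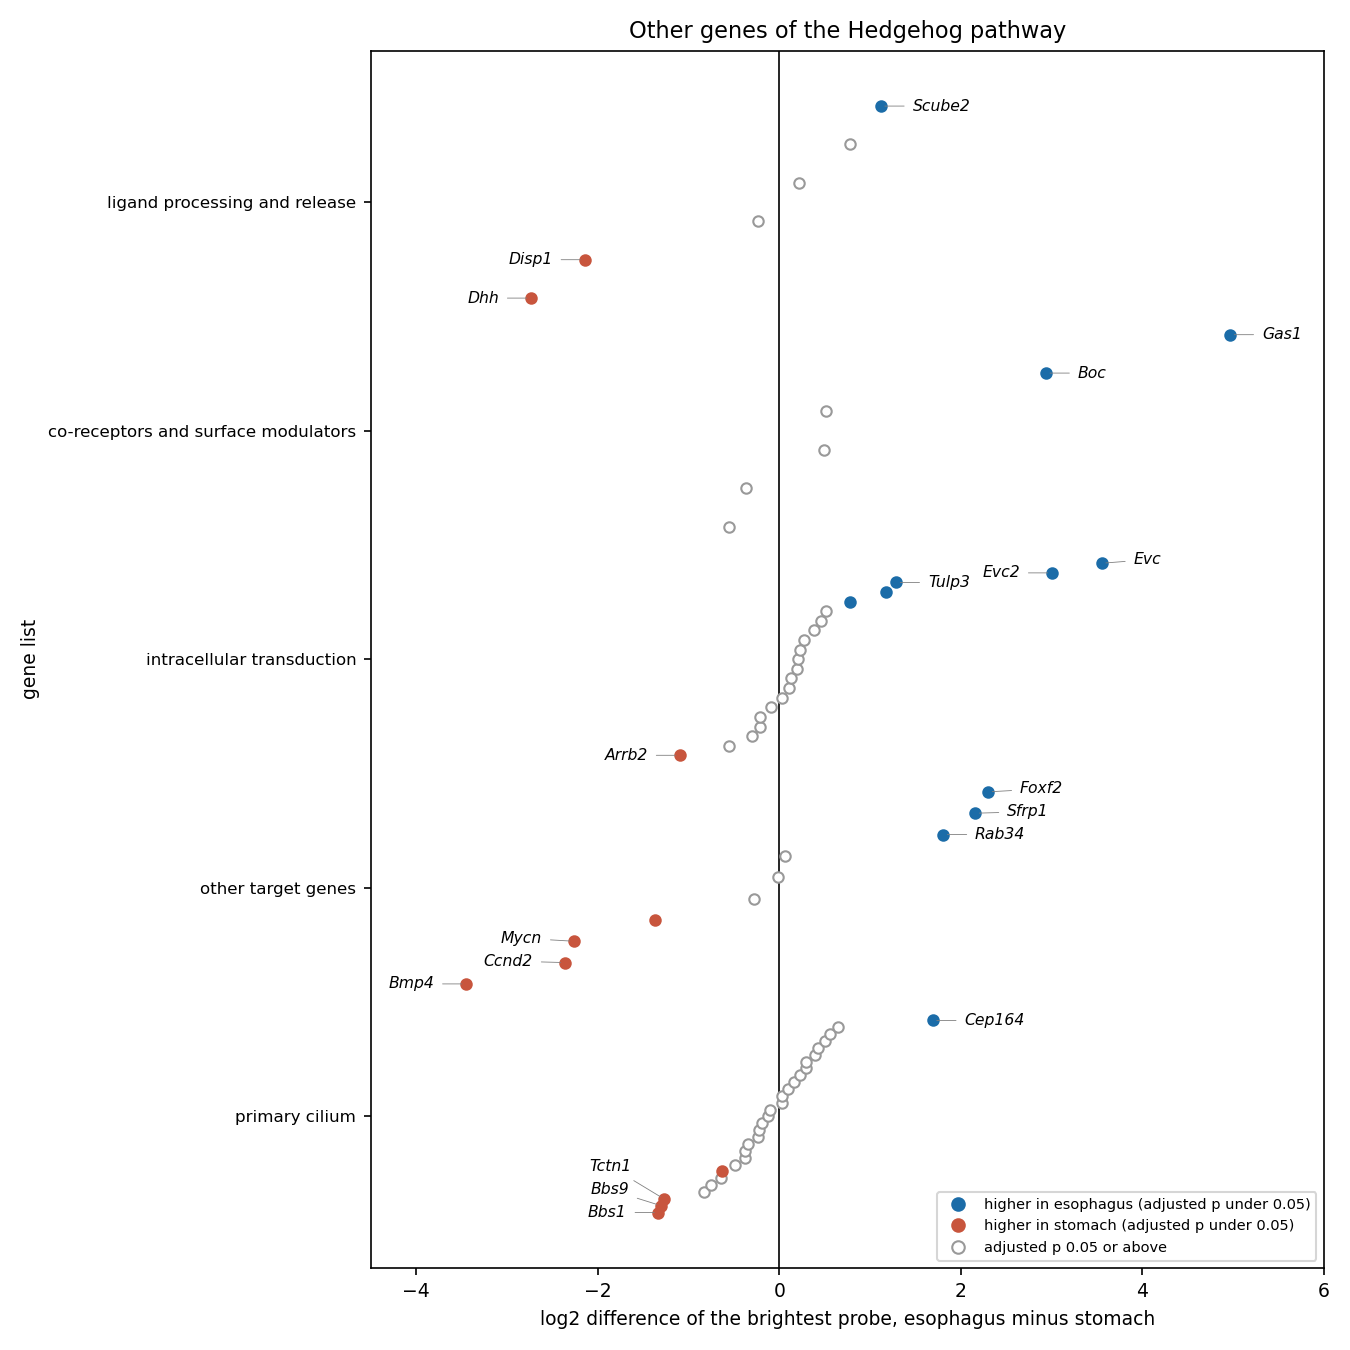
Log2 difference of the brightest probe (x axis) of each of the 72 other pathway genes, one point per gene, in 5 lists (y axis) and sorted within a list. Filled blue points were called toward the esophagus and filled red points toward the stomach; *Gas1* (4.97), *Evc* (3.55) and *Boc* (2.94) lie at the esophagus end and *Bmp4* (-3.45) and *Dhh* (-2.74) at the stomach end.

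The labelled epithelia were borne out by their markers. All 5 squamous markers were called toward the esophagus and all 5 columnar markers toward the stomach. On their brightest probes *Krt5* read 17.07 to 17.08 in the esophagus and 4.85 to 5.39 in the stomach (limma adjusted p = 3.23e-08), and *Krt8* read 16.65 to 16.88 in the stomach and 5.21 to 5.83 in the esophagus (limma adjusted p = 5.93e-08). Each was well above background on 1 array of the lower tissue. All 4 pit cell markers, of the mucous surface cells of the stomach, were called toward the stomach. Of 5 genes listed as parietal cell markers, *Gif* and *Atp4a* were called toward the stomach. *Gif*, intrinsic factor, is made by chief cells in the mouse and so does not mark parietal cells there. *Atp4a*, a proton pump subunit, read only 5.76 to 6.42 in the stomach, with an adjusted p of 0.0652 without the stomach array of mouse 2, while *Atp4b* and *Slc26a7* stayed at background throughout.

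Markers of mesenchymal cells, which respond to Hedgehog ligands in tissue, were mostly at or near background. Of 12 fibroblast and smooth muscle markers, 6 stayed at background on every array, among them *Pdgfra*, *Pdgfrb*, *Lum* and *Myh11*, 5 were well above it on 1 to 3 arrays, and *Tagln* was above it on all 6. In the main fit limma called 0 of the 12, and 1, *Col1a2*, had an unadjusted p under 0.05. Among the alternatives the limma adjusted p of *Col1a2* fell to 0.00783. *Acta2* was uneven, at 6.69 on the esophagus array of mouse 2 and 4.74 to 4.97 on the other arrays. The summed signal of the 12 markers was 9.45 to 10.70 on the log2 scale in the esophagus and 9.61 to 11.01 in the stomach. *Tagln*, at 8.55 to 10.76, was the brightest of them. The part of mesenchymal cells in the member differences was not tested.

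Of 6 immune markers, 3 stayed at background on every array, among them *Ptprc* and *Adgre1*, and 3 were well above it each time. *Cd3e* had values of 7.23 to 8.34, *Csf1r* had 7.78 to 8.35 on its brightest probe, and *Cd68* ran from 11.80 to 14.77 in the esophagus and from 11.04 to 12.36 in the stomach. Of 4 endothelial markers, *Cdh5* stayed at background, while *Pecam1*, at 5.80 to 6.37, and *Kdr*, at 8.44 to 9.12 on its brightest probe, were above it on each of the 6 arrays. The other *Kdr* probe was at background on all arrays. The part of such cells in the member differences was not tested. In the main fit limma called 0 of the immune and 0 of the endothelial markers. At an unadjusted p under 0.05 there were 2 immune markers toward the esophagus and 1 endothelial marker toward the stomach. Among the alternatives, the limma adjusted p fell to 0.0498 for *Cd68*, 0.0334 for a dimmer *Csf1r* probe and 0.0422 for *Cdh5*. In organoids of mixed cells, fewer cells that make a transcript and less of it per cell cannot be told apart.

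Genes whose profile over the 6 arrays was nearest to a member were ranked by the root mean square difference of mean-centered log2 values, over 17375 probes. Nearest to *Ihh* were *Galnt6*, *Selenop* and *Cxcl17*, at 0.33, 0.39 and 0.40. Nearest to *Gli3* were *Krt13*, *Duoxa1* and *Cd109*, at 0.25, 0.26 and 0.29. The *Krt13* match belongs to its dimmer probe, with a difference of 5.75, and not to its brightest probe, with 11.0. Nearest to the called *Smo* probe were *Dennd5a*, *Fam53b* and *Adgrl1*, at 0.12, 0.13 and 0.13. For the brighter *Ptch1* probe, whose profile is almost flat, they were *Acvr2a*, *Atp2a1* and *Htr2b*, at 0.06, 0.08 and 0.09. All arrays share the 2 tissues, so with 6 points this likeness is a description of the tissue difference and its size.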

How the data were processed

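RNA of 3 esophagus and 3 stomach organoid cultures, both tissues from each of 3 mice, was hybridized to single-color arrays, and the authors used Agilent Feature Extraction (11.5.1.1) to read them. Deposited scanner files give unnormalized spot intensities and flags. The authors' log2 values come from their own background correction and quantile normalization, matched closely by normexp (offset 15) on median intensities, and their empty cells were outlier-marked spots. Spots of a probe were averaged, and all 55681 non-control probes were tested with lmFit and eBayes (R 4.3.3, limma 3.58.1), without a block, with Benjamini-Hochberg adjustment. Probe coordinates are those of the scanner files (mm9). Tables and plots were made in Python 3.11.15, and the fit was tested on simulated data. RNA of the 2 tissues of a mouse is paired by the labels, but deviations of same-mouse arrays from their tissue means correlated at only -0.002 to 0.042. The number of arrays limits the precision. The members and gene lists were chosen with earlier results of these data known.

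Named were all members, up to 3 called genes per list and direction with the largest differences, genes needed to check the labels, and the 3 genes nearest in profile to each member detected in a tissue. *Csnk1a1*, *Prkar1a*, *Tagln* and *Cd68* were named after their values were seen. Alternatives were normexp on mean intensities (offset 16 or 50), 75th percentile scaling, outlier spots kept, a dim-probe filter, trend and robust variances, mouse or slide as a block, each array left out, averaged probes and the thresholds of the methods.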

Additional observations from a re-analysis of the deposited data

How the results depend on the processing

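The calls of *Ihh*, *Gli3* and *Smo* A_51_P258766 (differences -8.69, 5.66 and 2.35) held in all limma fits that kept probes apart. Their limma adjusted p was at most 0.00151 in those fits. They could not hold in the exact permutation test, whose smallest p is 0.1. With the probes of a gene averaged, *Smo* was not called (limma adjusted p = 0.0776). Leaving out single arrays gave -1.12 to -0.40 for *Shh*, -1.31 to -0.69 for *Smo* A_55_P2121484, 0.46 to 1.15 for *Gli1* A_55_P2183587 and -0.052 to 0.20 for *Hhip* A_51_P416822, and 3 to 5 member probes called. *Hhip* A_55_P1969276, below background, turned to -0.22 with 75th percentile scaling. The unadjusted rule with a 1.5-fold difference called 6 member probes and 5 member genes. Over all probes 6770 were called, and 4091 to 7415 with 1 array left out, while 24 pathway list genes became 13 to 25. The lowest of these counts came without the stomach array of mouse 1 for all probes and without that of mouse 2 for the lists. With the mouse as replicate block, 6153 probes, 3 member probes and 19 list genes were called, and among the named genes recomputed with it the pairing ended the calls of *Arrb2* (-1.10) and *Bbs1* (-1.33) and changed no other call. *Acvr2a* and *Atp2a1*, near *Ptch1* in profile and not called, ran from -0.30 to 0.095 and from -0.29 to 0.065 with 1 array left out, and changed sign without the stomach array of mouse 4. The esophagus array of mouse 4 was alone on a second slide, so the slide as a block gave the same values as leaving it out. The causes of these changes were not tested. Signal over background limits what *Shh*, *Gli1*, *Gli2* and *Hhip* can show.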
